A study of Mus musculus with 18 samples.

Results

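Myosin light chain kinases and the subunits that direct myosin phosphatase form a set of 7 genes here: the kinases Mylk, Mylk2, Mylk3 and Mylk4, and the targeting subunits Ppp1r12a, Ppp1r12b and Ppp1r12c. They were found by symbol among 22180 genes of the array, all 7 were measured, each by a single probeset, and no filter on signal was applied. Mylk4 was chosen from its measured fall after tunicamycin in these same muscles, and the others were then taken as its paralogs and as the opposing phosphatase. The tunicamycin-minus-saline values of the 7 genes are therefore given as a description, with no p-value, and a count of them past the threshold of the array-wide fit supports nothing.

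Gene expression was measured in the gastrocnemius, a calf muscle, of 9 wild-type (WT) mice labelled as females on a mix C57Bl6/J-SV129 background; the animal section of the study names male C57BL/6J mice instead, and the strain was not resolved. In the tunicamycin group, 1 leg per mouse received 30 µg of the drug in 30 µL by intramuscular injection, and in the saline group the opposite leg of the same mouse received saline; both were collected 24 h later. Tunicamycin blocks N-linked glycosylation and thereby causes endoplasmic reticulum stress (ERS). Both groups come from the same drug-treated animals, no uninjected muscle was analysed, so an effect that reached the saline leg too would be hidden. Each muscle was hybridised to 1 array, 9 tunicamycin and 9 saline, and values are log2 signals.

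The ER stress check list rose in full: 8 of 8 genes were called in the tunicamycin legs. In this and all later counts, called means a Benjamini-Hochberg adjusted p under 0.05 with limma over all 22180 genes, with the mouse as a block. Across the array 10.9% of genes were called, 4.72% as higher and 6.15% as lower in tunicamycin legs. Array medians ran from 4.99 to 5.07. The skeletal fibre markers had list means of 11.25 to 11.37 in tunicamycin legs and 11.25 to 11.40 in saline legs, with 0 of 7 called and 0 of 7 at an unadjusted p under 0.05. The cardiac markers had list means of 5.39 to 5.54 in tunicamycin legs and 5.28 to 5.58 in saline legs, with 0 of 7 called and 2 of 7 at an unadjusted p under 0.05. Xist was at 4.90 in the tunicamycin leg and 4.79 in the saline leg of mouse 9, whereas the other mice had 9.22 to 9.52; the female label of mouse 9 is not borne out by these values. In mice 1 and 9 the deviations of the legs from their group means did not correlate over all genes (r = -0.028 and -0.039). Values without both are therefore given for the members, and the other counts without them stand in the closing section. These mice also had the smallest mean change of the ER stress list (0.48 in each), so leaving them out removes the weakest responses as well.

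Myosin light chain kinases are activated by calcium-bound calmodulin and phosphorylate the regulatory light chain, a small subunit on the neck of the myosin head. In smooth muscle this phosphorylation starts contraction. In skeletal muscle the thin filament starts contraction, and light chain phosphorylation makes the response to calcium stronger, an effect known as potentiation. Myosin phosphatase removes the phosphate; its catalytic subunit is encoded by Ppp1cb, and a PPP1R12 subunit brings it to myosin. Small inhibitor proteins of the PPP1R14 family reduce its activity.

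Because Mylk4 is the member on which the results turn, its promoter is shown first. Promoters from RefSeq (build GRCm38.p6), from 250 bases before to 50 bases after a start site, were used here for 6 of the 7 genes, all but Mylk2. That of Mylk4 lies at chr13:32783915-32784214 on the minus strand. Capitals mark a match to the MEF2 consensus, a site for a family of muscle transcription factors.
Mylk4: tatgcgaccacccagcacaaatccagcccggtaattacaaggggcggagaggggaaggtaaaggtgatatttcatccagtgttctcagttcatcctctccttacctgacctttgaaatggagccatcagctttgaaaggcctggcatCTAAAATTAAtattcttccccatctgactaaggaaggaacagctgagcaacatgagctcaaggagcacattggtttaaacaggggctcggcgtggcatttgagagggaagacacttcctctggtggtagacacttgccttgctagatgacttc

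Searched on both strands, the MEF2 consensus was found in 3.19% of 32851 promoters of 300 bases and, among the 8 promoters of the members, in that of Mylk4 alone. The Mylk4 promoter also held 4 matches to the E-box CANNTG, bound by the myogenic bHLH factors; 72.3% of all promoters held at least 1, and among the members the other counts were 0 to 2. The CArG box, the site of serum response factor, was found in 1.63% of all promoters and in 0 of the 8. These matches describe the letters of a window and were not tested for any function.

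Mylk4, a kinase of this family present in striated muscle, was lower in the tunicamycin leg than in the saline leg of all 9 mice. Its signal had a lowest value of 7.32, a median of 8.84 and a highest of 9.59 in tunicamycin legs, against 8.47, 9.72 and 10.65 in saline legs. The groups overlapped: 3 of the 9 tunicamycin legs lay below the lowest saline leg, and 5 of the 9 saline legs lay above the highest tunicamycin leg. The mean was 8.66 ± 0.77 in tunicamycin legs and 9.67 ± 0.71 in saline legs (SD, n = 9 each), and the mean change within mouse was -1.01 ± 0.12 (limma SE), so that tunicamycin legs held 49.6% of the saline signal. Of the 22180 genes, 3 had a larger mean fall. In bulk muscle, fewer cells of a type and less RNA per cell cannot be told apart.

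**Figure D1:**
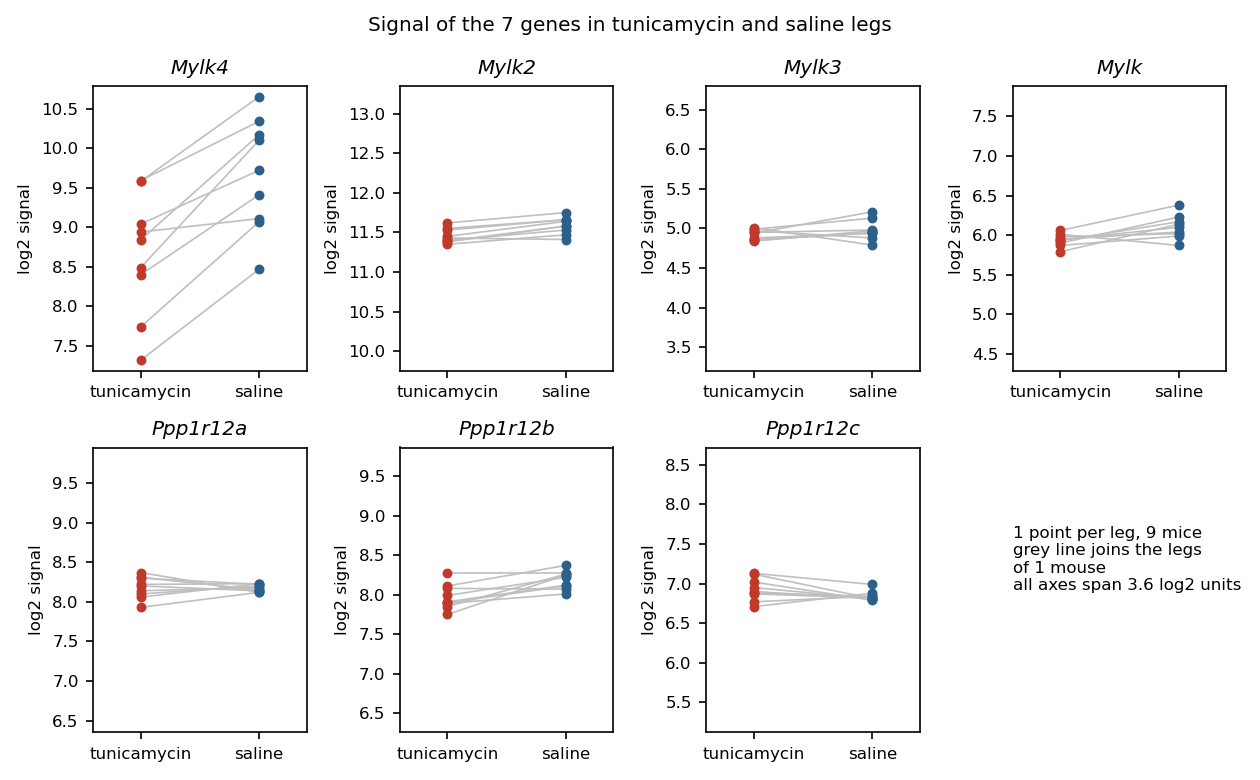
Log2 signal (vertical axes, each spanning the same number of log2 units) of each of the 7 genes in the 9 tunicamycin legs (left, red) and the 9 saline legs (right, blue), with grey lines joining the legs of 1 mouse. Mylk4 runs from 7.32 to 9.59 in tunicamycin legs and from 8.47 to 10.65 in saline legs, while the legs of every other gene lie within a much narrower band.

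The size of the Mylk4 change differed between mice. It was -0.67, -1.62, -1.33, -1.15 and -1.07 in mice 1 to 5, and -1.02, -0.75, -1.33 and -0.17 in mice 6 to 9. Mouse 2 had the largest change and mouse 9 by far the smallest; without mice 1 and 9 the mean was -1.18.

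Among the saline legs alone Mylk4 was among the most uneven genes of the array. Saline legs of different mice spanned 2.19 log2 units, 4.55-fold between the lowest, mouse 4, and the highest, mouse 5. Its SD among saline legs was larger than that of 99.9% of genes (28 genes had a larger one), whereas the SD of the other 6 members lay between 0.046 and 0.15 and the median over all genes was 0.13. The spread among saline legs and the resemblance between legs were not part of the choice of the gene.

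The legs of the same mouse resembled each other in Mylk4. Mice 5 and 7 had the highest Mylk4 signals in both legs and mouse 4 the lowest in both. Over the 9 mice, the tunicamycin and saline legs correlated with r = 0.83 (Pearson) and 0.80 (Spearman); without mice 4 and 5, the saline legs farthest from the median, r was 0.61. The r of 98.2% of genes was lower, and the median over all genes was 0.15. Without the mouse block the SE of the Mylk4 change was 0.30 in place of 0.12.

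**Figure D2:**
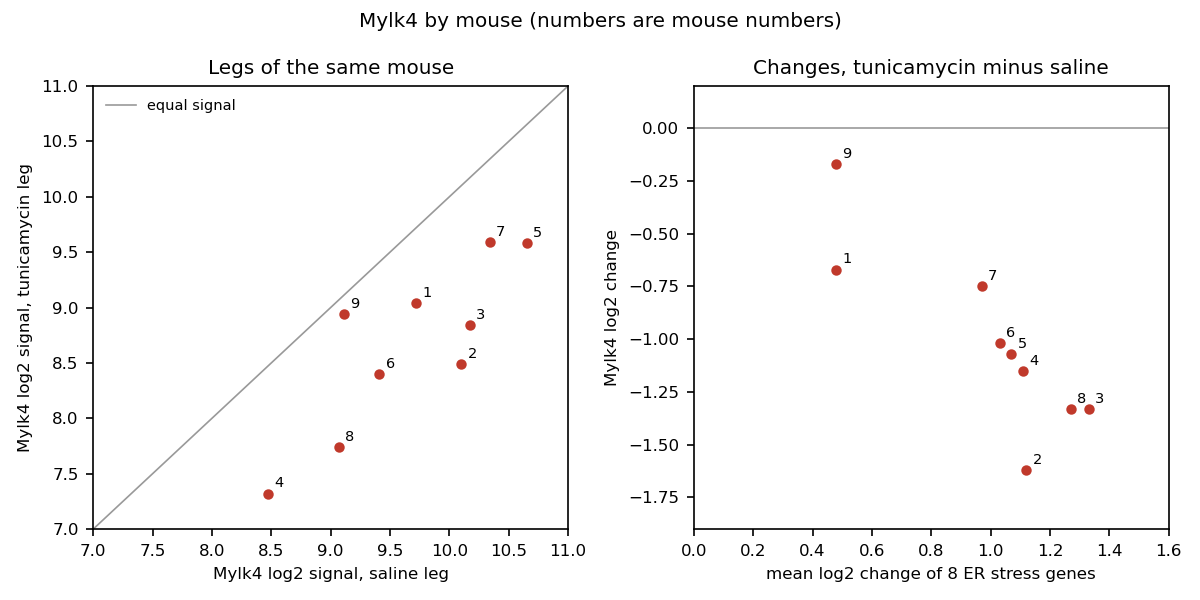
Left, Mylk4 log2 signal of the tunicamycin leg (vertical) against the saline leg (horizontal) of each of the 9 mice, with a grey line where both would be equal; all 9 points lie below the line and follow it with r = 0.83. Right, the Mylk4 log2 change (vertical) against the mean log2 change of 8 ER stress genes (horizontal) in the same mice, r = -0.85; mice 1 and 9 have the smallest ER stress changes.

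The mice with the smallest ER stress response had among the smallest Mylk4 changes. The ER stress list changed by 0.48 in both mouse 1 and mouse 9, and by 0.97 to 1.33 in the others. Across the 9 mice its change and that of Mylk4 had r = -0.85 and Spearman r = -0.93, and r = -0.64 without mice 1 and 9. For Hspa5 alone, which encodes the ER chaperone BiP (change 1.36 ± 0.12, 9 of 9 mice higher, adjusted p = 1.19e-04 with limma), r was -0.76, and -0.36 without these mice. Both changes in each pair rest on the same arrays, so these coefficients are a description. Ddit3, which encodes the ERS transcription factor CHOP, changed by 1.15 ± 0.099 (9 of 9 mice higher, adjusted p = 1.19e-04 with limma).

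Fibre composition was read beside Mylk4 from marker lists. The fast fibre list had means of 11.88 to 12.05 in tunicamycin legs and 11.89 to 12.07 in saline legs, with 0 of 11 genes called and 0 of 11 at an unadjusted p under 0.05. The slow fibre list was far more variable, 7.67 to 8.64 in tunicamycin legs and 7.58 to 9.54 in saline legs, with 0 of 8 called and 0 of 8 at an unadjusted p under 0.05; it changed by -0.33 ± 0.76 (SD, n = 9), lower in 5 mice and higher in 4. Over the 9 mice, Mylk4 and the slow list had r = -0.19 and Spearman r = -0.42 across tunicamycin legs, and r = 0.71 and Spearman r = 0.67 across saline legs. In mouse 2, which had the largest Mylk4 change, the slow list changed by -1.87, and without mouse 2 the Mylk4 change was -0.94. With the slow list mean of each array as a covariate, a setting chosen after seeing the data, the Mylk4 change was -0.97 ± 0.13 (limma SE).

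The other kinases changed far less. Mylk2 encodes the dedicated kinase of skeletal muscle myosin. Its signal had a lowest value of 11.35, a median of 11.43 and a highest of 11.62 in tunicamycin legs, against 11.41, 11.58 and 11.75 in saline legs. The tunicamycin leg was lower in 8 of 9 mice, the exception being mouse 9 (0.01), and the groups overlapped. The mean change was -0.13 ± 0.039 (limma SE), a tunicamycin signal at 91.3% of saline. Mylk2 shared with Mylk4 a close resemblance between legs of 1 mouse (r = 0.79, Spearman r = 0.75, higher than in 97.2% of genes), with an SD of 0.10 among saline legs.

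Mylk3 encodes the kinase of cardiac muscle. Its signal, 4.84 to 5.01 with a median of 4.94 in tunicamycin legs and 4.79 to 5.21 with a median of 4.95 in saline legs, lay under 5.41, the median gene, and no detection call was used, so a change would be seen less well. It changed by -0.054 ± 0.051 (limma SE), lower in 7 of 9 mice, and every tunicamycin leg lay within the range of the saline legs. Mylk encodes the kinase of smooth muscle and non-muscle cells. Its signal was 5.79 to 6.06, median 5.94, in tunicamycin legs and 5.87 to 6.38, median 6.10, in saline legs. The change was -0.17 ± 0.055 (limma SE), lower in 8 of 9 mice and higher in mouse 1 (0.13), and 5 of the 9 saline legs lay above all tunicamycin legs.

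The phosphatase subunits went separate ways. Ppp1r12b, which encodes MYPT2, the form known from heart and skeletal muscle, was lower in 8 of 9 mice. Its signal was 7.75, 7.91 and 8.27 (lowest, median, highest) in tunicamycin legs, against 8.01, 8.22 and 8.37 in saline legs. The change was -0.22 ± 0.056 (limma SE), 86.2% of saline; 6 of the 9 tunicamycin legs lay below every saline leg, and mice 8 and 9 showed almost no difference. Mouse 2 had the largest change, -0.50, as it had for Mylk4.

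Ppp1r12a encodes MYPT1, the form best known from smooth muscle. It was 7.93, 8.20 and 8.37 in tunicamycin legs and 8.12, 8.18 and 8.23 in saline legs, with a mean change of 0.0042 ± 0.052 (limma SE), lower in 5 mice and higher in 4. Its saline legs were among the most even of the array (SD 0.046, with 0.541% of genes below it), and its tunicamycin legs spread to both sides of them, 3 below all saline legs and 3 above. Ppp1r12c encodes a further subunit of the same family. It was 6.71, 6.90 and 7.13 in tunicamycin legs against 6.79, 6.82 and 6.99 in saline legs, and changed by 0.086 ± 0.051 (limma SE), higher in 7 of 9 mice.

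**Figure D3:**
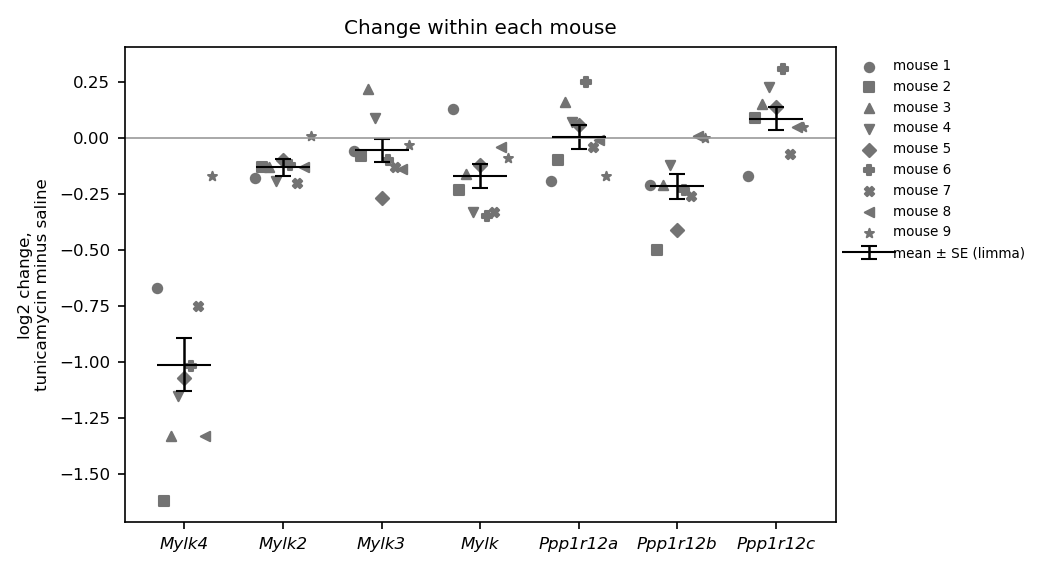
Log2 change (vertical axis, tunicamycin minus saline) of each member in each of the 9 mice, 1 marker shape per mouse, with the mean and the limma SE in black. Mylk4 is at -1.01 with all mice below 0; the means of the other 6 genes lie between -0.22 and 0.086.

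By the same threshold as the rest of the array, 3 of the 7 genes were called, Mylk4, Mylk2 and Ppp1r12b, all lower in tunicamycin legs, beside 10.9% of all genes. Since the set was chosen on this contrast, nothing is read from that share. The calls were not equally stable: of 18 alternatives, Mylk4 was called in 18, Ppp1r12b in 11 and Mylk2 in 7. Mylk, not called in the main setting, was called in 5, and Mylk3, Ppp1r12a and Ppp1r12c in 0. The median change of the set was -0.13, against 0.0064 over all genes. Without mice 1 and 9 the kinases changed by -1.18 for Mylk4, -0.14 for Mylk2, -0.057 for Mylk3 and -0.22 for Mylk. The phosphatase subunits then changed by 0.056 for Ppp1r12a, -0.25 for Ppp1r12b and 0.13 for Ppp1r12c.

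Within each mouse the Mylk4 change was set against that of each other member. The Mylk4 change was the lower one in all 9 mice, by a mean of -0.88 ± 0.41 relative to Mylk2, -0.96 ± 0.47 relative to Mylk3 and -0.84 ± 0.42 relative to Mylk (SD, n = 9). Against the phosphatase subunits the difference was -1.02 ± 0.51 for Ppp1r12a, -0.80 ± 0.38 for Ppp1r12b and -1.10 ± 0.50 for Ppp1r12c (SD, n = 9), again below 0 in 9 of 9 mice. The gap was smallest in mouse 9, where Mylk4 and Ppp1r12a changed equally (-0.0044 between them). Without mice 1 and 9 these differences lay between -1.31 (Ppp1r12c) and -0.93 (Ppp1r12b). Since array signals of different probes are not on 1 scale, levels were not compared between these genes.

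The substrates came next. Of 12 myosin light chain genes, 0 were called in either direction, in all 18 alternatives as well, and 1, Myl6b, had an unadjusted p under 0.05. Mylpf, the regulatory light chain of fast fibres and the main substrate in this muscle, was 11.35, 11.60 and 11.71 (lowest, median, highest) in tunicamycin legs against 11.52, 11.62 and 11.69 in saline legs, a change of -0.022 ± 0.043 (adjusted p = 0.798 with limma). Myl2, the regulatory chain of slow and ventricular muscle, was 5.86, 6.01 and 6.21 in tunicamycin legs against 5.63, 6.40 and 7.22 in saline legs, where it varied more widely, and gave -0.28 ± 0.15 (adjusted p = 0.250 with limma). The smooth and non-muscle regulatory chains gave -0.059 ± 0.051 for Myl9, -0.081 ± 0.074 for Myl12a and 0.057 ± 0.069 for Myl12b, with adjusted p of 0.516, 0.542 and 0.661 (limma). The median change of the 12 genes was -0.032.

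Among 14 myosin heavy chains, 1 rose and 2 fell, and none of the 3 is a skeletal fibre heavy chain. Myh11, the smooth muscle heavy chain, was lower in 9 of 9 mice, and its groups did not overlap (6.51 to 6.86 in tunicamycin legs and 6.90 to 7.21 in saline legs; -0.27 ± 0.049, adjusted p = 0.00592 with limma). Myh14, a non-muscle heavy chain, fell by 0.17 on the log2 scale (SE 0.047, 8 of 9 mice, adjusted p = 0.0365 with limma). Myh9, the other way, is the non-muscle heavy chain of motile cells and rose by 0.30 ± 0.064 (8 of 9 mice, adjusted p = 0.0120 with limma). The fast heavy chains Myh4 and Myh1 changed by 0.0098 ± 0.036 and -0.17 ± 0.098, and slow Myh7 by -0.48 ± 0.25 (limma SE); none of these passed the test.

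Of 10 phosphatase catalytic subunits and inhibitors, 1 rose and 1 fell. Ppp1cb, the catalytic subunit that the PPP1R12 proteins bind, was 8.74, 9.12 and 9.19 (lowest, median, highest) in tunicamycin legs against 9.04, 9.17 and 9.34 in saline legs. It was lower in 9 of 9 mice although the groups overlapped, by -0.19 ± 0.048 (adjusted p = 0.0276 with limma). With its brightest probeset alone the change was -0.10 and did not pass (adjusted p = 0.121 with limma). The other catalytic subunits of the same phosphatase family, Ppp1ca and Ppp1cc, gave -0.039 ± 0.046 and -0.027 ± 0.051 and did not pass. Ppp1r14b, an inhibitor of the phosphatase, was higher in 7 of 9 mice (8.08, 8.23 and 8.35 in tunicamycin legs against 7.73, 7.97 and 8.20 in saline legs; 0.22 ± 0.064, adjusted p = 0.0431 with limma), whereas Ppp1r14a, the smooth muscle inhibitor CPI-17, gave -0.091 ± 0.042 (adjusted p = 0.194 with limma).

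Upstream, 4 of 14 measured calmodulin and calcium effectors fell and 0 rose. Camk2b and Camk2g encode subunits of calmodulin kinase II and gave -0.22 ± 0.055 and -0.21 ± 0.056, each lower in 8 of 9 mice (adjusted p = 0.0226 and 0.0296 with limma). The other subunit genes were not called and differed in direction. Camk2a gave -0.16 ± 0.057 (adjusted p = 0.103 with limma), while Camk2d gave 0.20 ± 0.089 and was higher in 6 of 9 mice (adjusted p = 0.180 with limma). Ppp3ca, a catalytic subunit of the calcium-dependent phosphatase calcineurin, was lower in 9 of 9 mice (9.47 to 9.79 in tunicamycin legs and 9.72 to 9.95 in saline legs; -0.20 ± 0.047, adjusted p = 0.0187 with limma). Cacna1s, the voltage sensor that couples excitation to calcium release, gave -0.16 ± 0.044 (8 of 9 mice lower, adjusted p = 0.0362 with limma). The calmodulin genes themselves were not analysed here. Of 4 measured giant sarcomeric kinases, relatives with a myosin-light-chain-kinase-like domain, Speg alone was called (-0.25 ± 0.057, 8 of 9 mice lower, adjusted p = 0.0155 with limma); Ttn gave -0.043 ± 0.037.

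**Figure D4:**
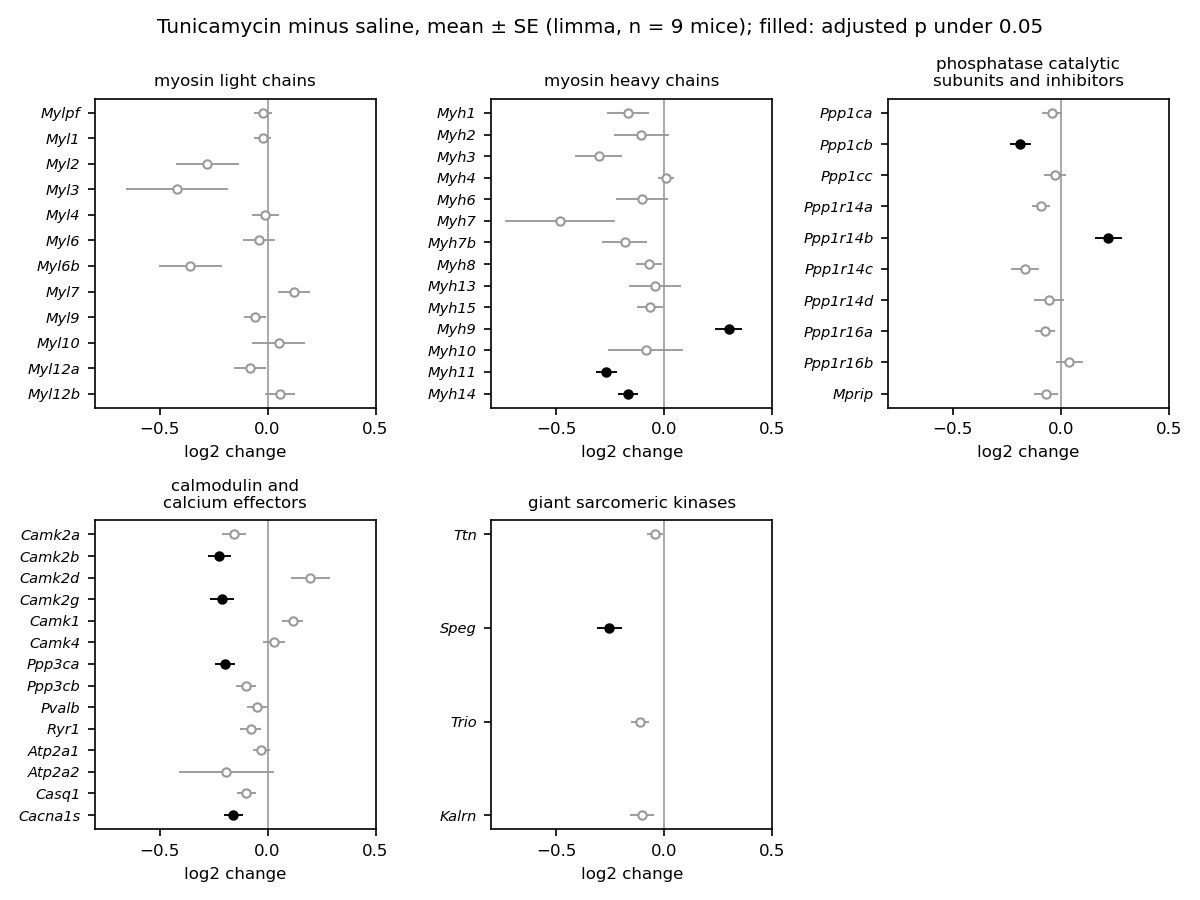
Mean log2 change (horizontal axes, tunicamycin minus saline, bars are limma SE, n = 9 mice) of the measured genes of 5 lists around the kinases and the phosphatase; filled points were called. Of 54 genes 2 rose and 8 fell, the filled points lie between -0.27 and 0.30, and no light chain is filled.

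Over the 5 lists, 2 of 54 measured genes rose (3.70%, beside 4.72% of all genes) and 8 fell (14.8%, beside 6.15% of all genes), with a median change of -0.080 against 0.0064 over all genes. The shares over all genes include dim genes. When only genes at or above the median signal were tested, 3007 were called in place of 2410, and 61.7% of these were falls. The 14.8% is therefore not read as an excess over genes of like signal. Myh11, Myh9 and Ppp3ca were called in all 18 alternatives. Each of the other 7 lost its call in some: Myh14, Ppp1r14b and Cacna1s in 9, Ppp1cb and Camk2g in 8, Camk2b in 6 and Speg in 2. Their adjusted p (limma) then reached up to 0.121 (Ppp1cb). After centring on array medians the share of falls among all called genes was 69.0% in place of 56.6%, so the balance of rises and falls depends on the scaling.

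Markers of cells other than fibres moved beside these genes. Of 11 smooth muscle markers 0 rose and 2 fell, Myh11 and Tagln (-0.26 ± 0.063, adjusted p = 0.0227 with limma), with list means of 6.66 to 6.90 in tunicamycin legs and 6.71 to 6.93 in saline legs; Acta2, the smooth muscle actin, gave 0.049 ± 0.075. Of 6 pericyte markers 2 fell, Rgs5 (-0.27 ± 0.043, adjusted p = 0.00289 with limma) and Abcc9 (-0.26 ± 0.045, adjusted p = 0.00436 with limma), each lower in 9 of 9 mice. The others were not called and did not move together. Kcnj8 gave -0.18 ± 0.062, Pdgfrb -0.092 ± 0.074 and Notch3 -0.00082 ± 0.052, while Cspg4 gave 0.081 ± 0.044 and was higher in 8 of 9 mice. The pericyte list means were 7.72 to 7.90 in tunicamycin legs and 7.82 to 8.07 in saline legs. Abcc9 had the highest mean signal of the pericyte list (10.16 in tunicamycin legs and 10.42 in saline legs), and which cells gave it was not tested. The lower genes of these lists stand beside the lower Mylk signal, and their part in it was not tested. Of 8 macrophage markers 4 rose, with list means of 6.47 to 7.51 in tunicamycin legs and 6.13 to 6.89 in saline legs, and of 8 neutrophil markers 4 rose, 4.54 to 5.39 in tunicamycin legs and 4.31 to 4.89 in saline legs; Myh9 is a gene of such cells too, and the part of these cells was not tested. Of 8 fibroblast markers 2 rose, Col1a2 and Col3a1, while Dpt, not called, gave -0.29 ± 0.13 (limma SE) and was lower in 6 of 9 mice. The fibroblast list changed by 0.11 ± 0.27 (SD, n = 9), higher in 7 mice. By contrast, 0 of 8 endothelial and 0 of 6 adipocyte markers were called, with 0 at an unadjusted p under 0.05 in either list. The adipocyte list varied widely, 6.55 to 8.96 in tunicamycin legs and 6.76 to 7.80 in saline legs. It changed by -0.16 ± 0.86 (SD, n = 9), from -1.25 in mouse 3 to 1.76 in mouse 1, so the missing calls do not show a steady signal. The macrophage list was higher in 7 of 9 mice, with changes of -0.07 and -0.35 in mice 1 and 9, the mice with the smallest Mylk4 changes (-0.67 and -0.17); the part of these cells in the Mylk4 change was not tested.

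Genes whose pattern was most like that of Mylk4 were sought among 11084 genes at or above the median signal, without the other members. Over the 9 saline legs, the 5 highest Pearson r belonged to Fitm1, a gene of lipid droplet formation in muscle (r = 0.94, Spearman r = 0.87), Arvcf (0.93, 0.97), Dact1 (0.92, 0.93), Klhl41, a sarcomere-associated gene (0.91, 0.90), and Gm15628 (0.90, 0.85). None of these varied as widely: Fitm1 ran from 8.70 to 9.06. Over the 9 changes within mouse, the highest were A930033H14Rik (0.95, 0.92), Rai2 (0.95, 0.95), Inpp4a (0.95, 0.93), Keap1, which encodes the partner that holds the oxidative stress factor NRF2 in check (0.94, 0.90), and Aif1l (0.93, 0.97). The lists did not share a gene. Of the 11084 genes, 4 exceeded an r of 0.9 over saline legs and 23 lay under -0.9, so coefficients of this size were met in both directions with 9 points.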

How the data were processed

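Gastrocnemius RNA of 9 mice (9 tunicamycin and 9 saline legs) was measured on MoGene-2_0-st arrays. The authors deposited log2 values, 1 per probeset, that had been through RMA in Partek (background correction, quantile normalization, median polish); the genome build is not given in the sources used here. Of 41345 probesets, 23521 carried 1 symbol in the platform annotation and were averaged to 22180 genes; 1820 with several symbols and 16004 not listed were left out. Tests used limma (3.58.1, R 4.3.3; two-sided, mouse as a block), and genes were called at a Benjamini-Hochberg adjusted p under 0.05; the script was tested on simulated data. RMA compresses large changes, and precision is limited by how many arrays there are. Replicates are separate mice.

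The block comes from the labels, which put both injections in the same animal; deviations of the legs of 1 mouse correlated with a median r of 0.12, against -0.013 between mice, and with -0.028 and -0.039 in mice 1 and 9. The members and all gene lists were chosen with earlier results of these data known. Named were all members, each list gene past the threshold (up to 4 per list by p), Mylpf, Myl2, Myl9, Myl12a, Myl12b and Ppp1cb, Hspa5 and Ddit3, and the 5 genes most like Mylk4 by each measure; others named beside them were picked after their values were seen. A further list is not reported here. Correlations are descriptions with no p. Alternatives were no block, a second quantile normalization, arrays centred on their medians, only the brightest probeset of a gene, genes at or above the median signal only, array weights, a trended and robust prior, each mouse left out, mice 1 and 9 left out and, chosen after seeing the data, the slow fibre list mean as a covariate. Promoters are from RefSeq, GRCm38.p6.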

Additional observations from a re-analysis of the deposited data

Results flagged for a closer look

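In 66 groups of 9 values (tunicamycin legs, saline legs and changes within mouse of 22 genes), 5 held a sample set apart from the other 8 by a large part of the whole range (Dixon's test), and chance gives about 1 in 20. Of these, 2 concern the members. The Mylk2 change was 0.01 in mouse 9, against -0.10 in the nearest mouse. Ppp1r12c in saline legs was 6.99 in mouse 3, against 6.88 in the nearest. The others were the Ppp3ca change in mouse 8 (-0.47, nearest -0.25), Speg in the tunicamycin leg of mouse 9 (8.47, nearest 8.13) and Mylpf in the tunicamycin leg of mouse 3 (11.35, nearest 11.55).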

How the results depend on the processing

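The changes of the 7 members, and the differences between Mylk4 and the others, moved by less than 1 SD between mice in every alternative run, and Mylk4 stayed between -0.94 and -1.18. The Myl12a change, not called, was 0.013 with the slow fibre covariate. The Ppp1r12a change, near 0, took either sign (-0.026 to 0.028 with 1 mouse left out, and 0.056 without mice 1 and 9). Mylk3 is under the filter on median signal, so it has no value there. Without the replicate block, the pairing of the legs, mean changes are the same by construction (Mylk4 -1.01) and the errors differ. The SE of Mylk4 was then 0.30 in place of 0.12, and 1859 genes were called in place of 2410. Among the members the call of Mylk2 was lost, and in the lists around them those of Ppp1cb, Camk2g, Cacna1s and Speg.

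With 1 mouse left out, 1304 to 2787 genes were called; leaving out mouse 2, 3, 4, 5, 6 or 7 gave 1565, 1304, 1363, 1406, 1466 and 1445. The members past the threshold, a count that supports nothing since they were chosen on this contrast, numbered 1 to 3, and 1 without mouse 2, 3, 5, 6 or 7. Without mice 1 and 9 the counts were 3209 genes, 4 members, 3 phosphatase genes and 6 calcium effectors, and Ppp1r14b changed by 0.31 in place of 0.22. With 1 mouse left out, phosphatase subunits and inhibitors called ran from 0 to 3 and calcium effectors from 1 to 5. Other settings: after quantile normalization again, 1 member was called. After centring, 69.0% of called genes were falls and 1 phosphatase gene was called, as with the brightest probeset. Among genes at or above the median signal, 2 giant kinases were called. Without the block, 1 phosphatase gene, 2 calcium effectors and 0 giant kinases were called. With the slow fibre list mean as a covariate, 1401 genes and 1 member, Mylk4, were called, with 0 phosphatase genes, 1 calcium effector and 0 giant kinases. Tested per probeset the count stayed within 1.5 times of the main one. No detection call was used, so what dim probesets such as that of Mylk3 can show is limited.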
